A study of Mus musculus with 3 samples.

Results

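Ier2, Ier3, Ier5, Btg1, Btg2, Gadd45a, Gadd45b, Pim1, Csrnp1 and Rhob are growth and stress genes of the immediate-early class, the genes that cells transcribe within minutes of a stimulus without first making new protein. The 10 genes were given as a list of names, with no threshold on a measured value, but were chosen with earlier results of these data known. They were matched by gene identifier in all 3 libraries. They are 10 of 55536 annotated genes in the deposited gene tables, and all 10 were among the 18405 genes tested. RNA attached to chromatin was sequenced, after depletion of ribosomal RNA, from macrophages grown out of bone marrow of C57BL/6J mice and kept for 40 min with Lipid A at 100 ng/ml. Lipid A is the part of bacterial lipopolysaccharide that the receptor TLR4 recognises. The libraries form 1 group of 3 biological replicates, made from 1 µg of RNA in replicate 1, 250 ng in replicate 2 and 500 ng in replicate 3, and the labels trace all 3 to the same donor entry. Age and sex were not recorded. Untreated cells and other times were not analysed here, so the values are levels at 40 min and no change with Lipid A was measured. The p-values below rest only on the spread between these 3 libraries. In the limma tests each gene's variance was first drawn towards the trend over all genes tested. Fewer expressing cells cannot be told apart from less RNA per cell.

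Immediate-early genes are mostly short, have promoters that are open before the stimulus, and give unstable mRNA. RNA on chromatin is rich in transcripts still being made, so it lies nearer to current transcription than RNA of the whole cell does. The best known of them encode transcription factors, while most of the 10 genes here encode other kinds of protein. Pim1 is a kinase that needs no activating phosphorylation, the GADD45 proteins are small adaptors that activate stress kinases, BTG1 and BTG2 restrain proliferation and promote the removal of poly(A) tails, the IER proteins act on phosphatases and on survival, CSRNP1 is a nuclear protein with transcription-activating ability, and RHOB is a small GTPase of endosomes.

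Promoter sequence was available for 9 of the 10 genes, all but Ier2, from RefSeq's annotation of GRCm38.p6, as the 250 bases before each annotated start. RefSeq starts can differ from those of the annotation used for counting. These were searched on both strands for the κB and CArG motifs, the cyclic AMP response element TGACGTCA and its core TGACG, the AP-1 motif TGANTCA, the TATA motif TATAAA and the GC box GGGCGG. The windows below are those with a κB, TGACGTCA, AP-1 or TATAAA match, shown because these motifs belong to the inducible or focused type of promoter; each reads 5′ to 3′ on the gene's strand, ends next to the start site, and has its matches other than GC boxes in capitals. They lie at chr17:35821463-35821712 (plus strand) for Ier3, chr1:134079156-134079405 (minus) for Btg2, chr9:119983024-119983273 (minus) for Csrnp1, chr10:96616751-96617000 (plus) for Btg1 and chr10:80929841-80930090 (plus) for Gadd45b.
Ier3: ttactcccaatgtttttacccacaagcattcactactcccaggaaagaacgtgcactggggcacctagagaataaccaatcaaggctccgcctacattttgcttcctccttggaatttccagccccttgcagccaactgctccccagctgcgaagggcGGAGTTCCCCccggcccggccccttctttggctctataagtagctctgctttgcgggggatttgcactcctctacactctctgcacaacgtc
Btg2: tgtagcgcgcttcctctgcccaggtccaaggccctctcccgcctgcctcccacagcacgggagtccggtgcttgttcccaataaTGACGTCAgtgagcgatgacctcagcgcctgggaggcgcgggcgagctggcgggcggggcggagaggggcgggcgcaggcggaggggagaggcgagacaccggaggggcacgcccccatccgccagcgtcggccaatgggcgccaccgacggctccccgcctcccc
Csrnp1: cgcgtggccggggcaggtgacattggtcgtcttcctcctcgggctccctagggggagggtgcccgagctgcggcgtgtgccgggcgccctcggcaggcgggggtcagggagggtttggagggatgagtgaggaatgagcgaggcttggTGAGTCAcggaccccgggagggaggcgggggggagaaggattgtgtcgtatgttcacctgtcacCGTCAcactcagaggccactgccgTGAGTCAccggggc
Btg1: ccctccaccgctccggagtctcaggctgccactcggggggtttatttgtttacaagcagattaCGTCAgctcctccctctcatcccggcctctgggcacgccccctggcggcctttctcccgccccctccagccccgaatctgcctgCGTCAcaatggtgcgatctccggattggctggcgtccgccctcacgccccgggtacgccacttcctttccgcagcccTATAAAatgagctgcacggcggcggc
Gadd45b: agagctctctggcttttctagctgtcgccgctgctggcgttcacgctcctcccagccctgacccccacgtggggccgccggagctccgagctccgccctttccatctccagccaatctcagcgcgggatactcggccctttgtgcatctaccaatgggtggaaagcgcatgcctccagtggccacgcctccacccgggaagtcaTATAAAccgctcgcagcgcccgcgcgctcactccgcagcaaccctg

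In Ier3 the capitals mark a κB match on the minus strand, 92 to 83 bases before the start. Each motif's share is given over all 27025 genes with a window and over the 7030 of them that code for protein and had a mean TPM of 1 or more. A κB match was held by 8.23% of all and 10.8% of these expressed genes. In Btg2 they mark TGACGTCA, 166 to 159 bases before the start, which 1.77% of all and 3.23% of expressed genes held. In Csrnp1 they mark 2 copies of TGAGTCA, an AP-1 match on either strand, with a TGACG core on the minus strand between them. This window precedes a start inside the gene, and Csrnp1 had 4 windows to search where most genes have 1. AP-1 matches occurred in 7.82% of all and 5.41% of expressed genes. In Btg1 the capitals mark TATAAA 26 to 21 bases before the start and 2 TGACG cores on the minus strand, and in Gadd45b TATAAA 46 to 41 bases before it. TATAAA was present in 14.3% of all and 7.75% of expressed genes. No CArG match was found in the 9 genes, against 1.62% of all and 1.35% of expressed genes. With shares this low, 9 genes are too few to show a difference. The TGACG core, part of TGACGTCA, was found in 3 of the 9 (Btg1, Btg2 and Csrnp1), against 19.8% of all and 32.5% of expressed genes, a share like that of the 9. The GC box was found in all 9, against 35.4% of all and 65.1% of expressed genes. A match describes the letters only and was not tied to binding.

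All 10 genes stood above the typical expressed gene of these macrophages. Levels are given as TPM, an abundance scaled for transcript length and library depth. The reference gene is the median, taken in each library, of the 8765 nuclear protein-coding genes whose mean TPM reached 1, and lay at a TPM of 7.56, 6.64 and 6.56 in replicates 1, 2 and 3. A gene is called higher or lower if limma's treat test placed it more than 2-fold above or below this reference with a Benjamini-Hochberg adjusted p under 0.05 over all genes tested. All 10 were called higher and 0 lower, and each exceeded the reference gene in 3 of 3 libraries. Over all genes tested 15.1% were called higher and 52.4% lower, and over the 12296 protein-coding genes among them 19.5% higher and 44.5% lower. Because the 10 genes were chosen with earlier results of these data known, their excess over these shares is a description only. The median level was 2.28 log2 units above the reference gene for the 10 genes, against -1.74 over all genes tested and -1.09 over the protein-coding ones. Together the 10 genes held 818, 601 and 692 TPM in replicates 1, 2 and 3.

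**Figure D1:**
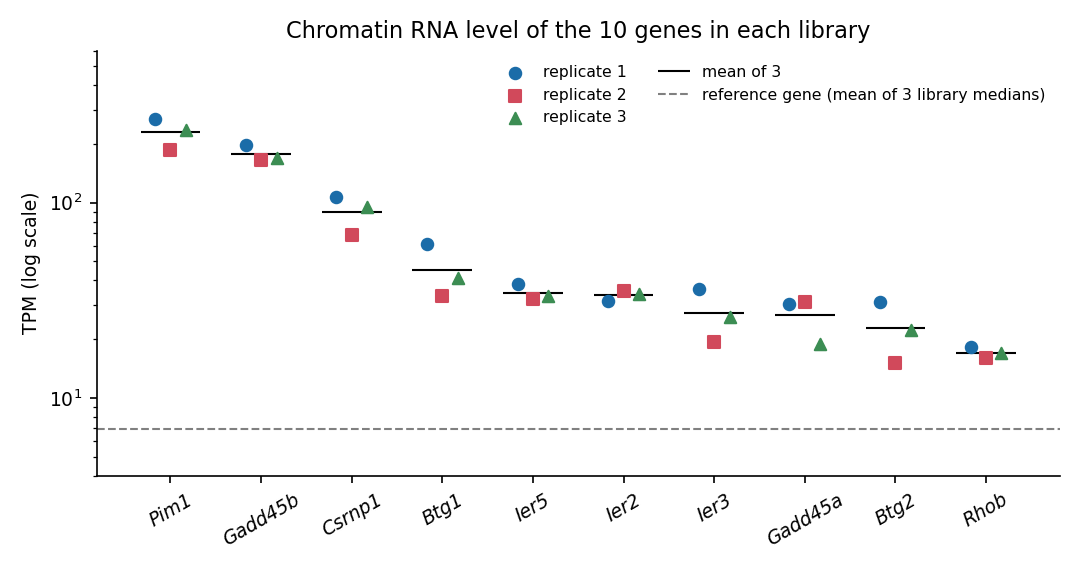
TPM (log axis) of each of the 10 genes in replicates 1, 2 and 3 (points), with the mean of 3 libraries (black line) and the reference gene averaged over the libraries (dashed line). Pim1 and Gadd45b lie highest, Rhob lowest, and every point lies above the dashed line.

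The libraries held 12699813, 18280033 and 18087091 expected counts in replicates 1, 2 and 3, and the smallest count of a member in any library was 293 (Gadd45a in replicate 3). Of 10 macrophage markers, Csf1r, Cd68 and Adgre1 among them, 9 were called higher and 1, Fcgr1, was neither. All 18 markers of other blood cells and fibroblasts were called lower and 8 of them were at 0 in every library. Their summed TPM was 0.560, 1.99 and 1.20, against 1349, 1002 and 1073 for the macrophage markers.

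Pim1 had the highest TPM of the 10. It was measured at 268, 186 and 235 TPM in replicates 1, 2 and 3, or 229 ± 41.5 (SD, n = 3), on 4284, 4382 and 5351 expected counts. The lowest value was that of replicate 2, and all 3 lay far above the reference gene. Its level was 5.02 ± 0.14 log2 units (SE) above that gene (limma treat, Benjamini-Hochberg adjusted p = 3.5e-05), and it ranked 131 of 8765. The gene (ENSMUSG00000024014.8) lies on chromosome 17 at 29490753 to 29496112 of mm10, on the plus strand. An antisense gene, Gm26885, overlaps it over 1173 bases and was measured at 13.5, 16.8 and 14.9 TPM. The strand setting of the counting is not stated, so reads from the overlap cannot be assigned to either gene with certainty.

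The other PIM kinases were far lower. Pim3 was at 12.7, 7.99 and 12.3 TPM and Pim2 at 3.82, 1.31 and 3.34 TPM in replicates 1, 2 and 3. Pim1 exceeded Pim3 by 4.38 ± 0.14 log2 units and Pim2 by 6.41 ± 0.55 (SD, n = 3), each in 3 of 3 libraries with no overlap. The difference from Pim3 was 5.75 in the alignment-free table and 3.57 with counts divided by the length of all annotated exons. An exact two-sided sign-flip test over 3 libraries cannot go below p = 0.25, which both pairs reached (0.295 after Benjamini-Hochberg adjustment over the 13 pairs compared among the members and their paralogs). Of 13 genes upstream of PIM kinases or among their substrates 3 were called higher, 4 lower and 6 neither, with a median of 0.38. As shares that was 23.1% higher and 30.8% lower, beside 19.5% and 44.5% of protein-coding genes tested. Cdkn1a, the cell-cycle inhibitor p21 and a PIM substrate, had 189 ± 38.1 TPM and Stat3, a transcription factor that induces Pim1, 82.5 ± 15.2 TPM. Eif4ebp1, a translation repressor downstream of PIM activity, was lowest at 0.317 ± 0.0473 TPM (SD, n = 3).

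Gadd45b stood next to Pim1, and its paralog Gadd45a was lower. Gadd45b, an adaptor that activates the kinase MAP3K4 and through it p38 and JNK, was measured at 197, 165 and 170 TPM in replicates 1, 2 and 3 (177 ± 17.1, SD, n = 3). These values rested on 2201, 2769 and 2776 expected counts and were highest in replicate 1. Its level was 4.66 ± 0.12 log2 units (SE) above the reference gene (limma treat, Benjamini-Hochberg adjusted p = 3.4e-05). Gadd45a, the family member first known from DNA damage and a p53 target, was measured at 30.4, 30.9 and 18.8 TPM (26.7 ± 6.84). Here replicate 3 was the low one. Its level was 1.90 ± 0.17 log2 units above the reference gene (limma treat, Benjamini-Hochberg adjusted p = 0.00247). Gadd45g, the remaining family member, was at 2.95, 4.18 and 2.57 TPM and was called neither higher nor lower.

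Within each library Gadd45b exceeded Gadd45a by 2.69, 2.41 and 3.17 log2 units and Gadd45g by 6.01, 5.27 and 5.99. The mean differences were 2.76 ± 0.38 and 5.76 ± 0.42 (SD, n = 3), each at the smallest exact sign-flip p of 0.25. Gadd45b (ENSMUSG00000015312.9) lies on chromosome 10 at 80930073 to 80932204, plus strand, and Gadd45a (ENSMUSG00000036390.8) on chromosome 6 at 67035096 to 67037457, minus strand. The noncoding gene E230016M11Rik overlaps Gadd45a on the opposite strand over 859 bases and had 3.89, 2.65 and 2.37 TPM. As with Pim1, reads from the overlap cannot be assigned to either gene with certainty. Of 13 partners of GADD45 proteins and stress kinases 3 were called higher, 4 lower and 6 neither, with a median of 0.67. As shares that was 23.1% higher and 30.8% lower, beside 19.5% and 44.5% of protein-coding genes tested. Cdkn1a at 189 ± 38.1 TPM and Map2k3, a p38-activating kinase, at 80.8 ± 9.18 TPM were highest. Mapk11, the p38β gene, was lowest at 0.643 ± 0.197 TPM (SD, n = 3).

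Btg1 exceeded Btg2 in every library. Both encode antiproliferative proteins that join the CCR4-NOT deadenylase to the poly(A)-binding protein PABPC1. Btg1 was measured at 61.2, 33.2 and 41.4 TPM in replicates 1, 2 and 3, or 45.3 ± 14.4 (SD, n = 3). Btg2, which is also a p53 target, was measured at 31.0, 15.1 and 22.4 TPM, or 22.8 ± 7.94. Both were highest in replicate 1 and lowest in replicate 2. Their ranges did not overlap, and Btg2 lay below Btg1 in 3 of 3 libraries, with differences (Btg2 minus Btg1) of -0.98, -1.13 and -0.88 log2 units. The mean difference was -0.998 ± 0.12 (SD, n = 3; exact sign-flip p = 0.25, the smallest possible).

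Btg1 was 2.65 ± 0.17 log2 units (SE) above the reference gene and Btg2 1.65 ± 0.19 (limma treat, Benjamini-Hochberg adjusted p = 0.000325 and 0.0138). Without replicate 1 Btg2 was not called (1.43 log2 units, adjusted p = 0.0716, limma treat), nor with the alignment-free table (1.37, adjusted p = 0.0703). Btg1 (ENSMUSG00000036478.8) lies on chromosome 10 at 96617006 to 96622809, plus strand, and Btg2 (ENSMUSG00000020423.6) on chromosome 1 at 134075170 to 134079120, minus strand. The other family members were lower, with mean TPM of 4.75 for Tob2, 1.48 for Tob1, 0.833 for Btg3 and 0.160 for Btg4. Btg1 exceeded Tob1 by 4.89 ± 0.32 log2 units. Btg2 exceeded Tob2 by 2.19 ± 0.35 (SD, n = 3), a difference of 0.01 in the alignment-free table and 3.28 with all annotated exons. Of 10 deadenylase subunit genes and Pabpc1 together, 2 were called higher, 2 lower and 7 neither, with a median of 0.76. As shares that was 18.2% higher and 18.2% lower, beside 19.5% and 44.5% of protein-coding genes tested. Pabpc1 had 166 ± 33.4 TPM and the scaffold gene Cnot1 43.2 ± 8.58 TPM, and Cnot9 was lowest at 1.43 ± 0.288 TPM.

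The 3 IER genes had overlapping ranges, about 2 log2 units above the reference gene. Ier5, whose product brings the phosphatase PP2A to the heat-shock factor HSF1, was measured at 38.2, 32.2 and 33.1 TPM in replicates 1, 2 and 3 (34.5 ± 3.20, SD, n = 3). Ier2, its relative and a nuclear regulator, was measured at 31.2, 35.5 and 34.0 TPM (33.6 ± 2.14). Ier3, an NF-κB target that modulates survival and ERK signalling, was measured at 36.1, 19.4 and 26.0 TPM (27.2 ± 8.46). Ier5 and Ier3 were highest in replicate 1, in which Ier2 was lowest, and the ranges of all 3 overlap. Ier5 minus Ier2 was 0.04 ± 0.22 log2 units, higher in 1 of 3 libraries (exact sign-flip p = 1), and Ier3 minus Ier2 was -0.35 ± 0.54, also higher in 1 of 3 (exact p = 0.5). Without replicate 1 the sign of Ier5 minus Ier2 turned, to -0.09.

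The levels above the reference gene were 2.30 ± 0.11 log2 units (SE) for Ier5, 2.26 ± 0.13 for Ier2 and 1.91 ± 0.17 for Ier3 (limma treat, Benjamini-Hochberg adjusted p = 0.000299, 0.000344 and 0.00238). Ier5l, the paralog of Ier5, was at 0.260, 0.310 and 0.150 TPM, and Ier5 exceeded it by 6.70 ± 0.38 log2 units (SD, n = 3) in 3 of 3 libraries. Ier5 (ENSMUSG00000056708.5, chromosome 1, 155096361 to 155099636, minus strand) and Ier2 (ENSMUSG00000053560.4, chromosome 8, 84661331 to 84662852, minus strand) each consist of 1 exon. Ier3 (ENSMUSG00000003541.6, chromosome 17, 35821684 to 35822923, plus strand) has 2. Of 12 genes for PP2A subunits and Hsf1, 3 were called higher, 1 lower and 8 neither, with a median of 0.57. As shares that was 25.0% higher and 8.33% lower, beside 19.5% and 44.5% of protein-coding genes tested. The catalytic subunit gene Ppp2ca had 34.7 ± 8.29 TPM, the regulatory subunit gene Ppp2r5a 28.9 ± 6.73 TPM and the other catalytic gene, Ppp2cb, 2.03 ± 0.558 TPM (SD, n = 3).

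Csrnp1 held the third place among the 10 and was measured at 106, 68.2 and 94.5 TPM in replicates 1, 2 and 3, or 89.7 ± 19.6 (SD, n = 3). Its product is a nuclear protein first described in human cells as induced by AXIN1. Replicate 2 was again lowest. The level was 3.66 ± 0.15 log2 units (SE) above the reference gene (limma treat, Benjamini-Hochberg adjusted p = 8.95e-05). Csrnp2 was at 0.240, 0.230 and 0.190 TPM and Csrnp3 at 0 in every library. Csrnp1 exceeded Csrnp2 by 8.11 ± 0.36 log2 units (SD, n = 3; exact sign-flip p = 0.25), the largest of the 13 pair differences, and 7.13 in the alignment-free table. Csrnp1 (ENSMUSG00000032515.8) lies on chromosome 9 at 119971163 to 119984658, minus strand, inside the annotated span of Cx3cr1 on the same strand, which had 0.02, 0.01 and 0.03 TPM. An antisense gene, 1700019L13Rik, overlaps it over 1513 bases and had 18.3, 20.1 and 23.5 TPM. Here too, reads from the overlap cannot be assigned to either gene with certainty. Of the Csrnp1 span 25.7% is exonic, the lowest share of the 10 genes. Only annotated transcripts were counted, so RNA of introns outside them was not measured. Exonic reads of unspliced RNA could not be told apart from those of spliced RNA.

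Rhob was the lowest of the 10 and varied little. It was measured at 18.2, 15.9 and 17.1 TPM in replicates 1, 2 and 3, or 17.1 ± 1.12 (SD, n = 3). Its level was 1.29 ± 0.12 log2 units (SE) above the reference gene (limma treat, Benjamini-Hochberg adjusted p = 0.0396). This call was lost under 8 of 13 alternatives, among them leaving out any 1 library (adjusted p = 0.0933, 0.0576 and 0.203 without replicates 1, 2 and 3, limma treat). Rhoa, the widely expressed paralog that organises actin, was at 29.3, 16.1 and 32.0 TPM, and Rhoc at 5.15, 4.79 and 5.70 TPM. Rhob minus Rhoa was -0.53 ± 0.46 log2 units (SD, n = 3), lower in 3 of 3 libraries though by 0.01 in replicate 2. The alignment-free table gave -1.46 ± 0.16, but divided by the length of all annotated exons Rhob was 0.77 higher than Rhoa, so the direction of this pair depended on the length used. Rhob exceeded Rhoc by 1.69 ± 0.12 log2 units, by 0.56 in the alignment-free table and by 2.82 with all annotated exons. Rhob (ENSMUSG00000054364.5, chromosome 12, 8497661 to 8500009, minus strand) has 1 exon.

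Across the 12 paralogs of the members, 1 (Rhoa) was called higher, 6 lower and 5 neither, with a median of -1.82. Among protein-coding genes tested 19.5% were called higher and 44.5% lower, with a median of -1.09. The share of paralogs called lower, 6 of 12, lay near that of these genes. In 11 of the 13 pairs the same gene was higher in every library, with the exceptions of Ier5 against Ier2 and Ier3 against Ier2. That number was 10 in the alignment-free table and 12 with all annotated exons.

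**Figure D2:**
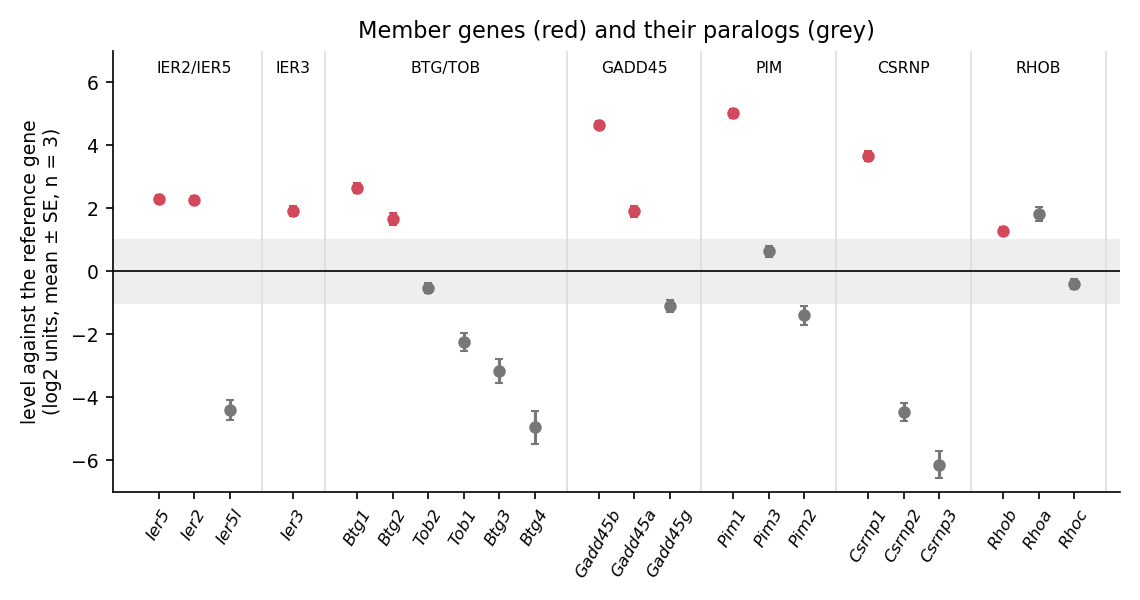
Level against the reference gene (log2 units) of the 10 member genes (red) and their paralogs (grey), grouped by family. Points give the mean of 3 libraries and bars limma's moderated SE, and the 2-fold band around the reference is shaded. Every member lies above the band, and among the paralogs Rhoa alone does.

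The order of the 10 genes rested on few clear steps. In every library Gadd45b exceeded Csrnp1 and Csrnp1 exceeded Btg1, with no overlap between their ranges. Pim1 exceeded Gadd45b in 3 of 3 libraries, but their ranges overlap. From Btg1 down, each gene's range overlaps that of the next in the order Btg1, Ier5, Ier2, Ier3, Gadd45a, Btg2 and Rhob. The length used for division moved parts of this order. The alignment-free table gave Pim1 488 ± 121 TPM, above Gadd45b at 212 ± 40.6 with no overlap. Expected counts divided by the length of all annotated exons and scaled to the same total gave Gadd45b 395.5 and Pim1 342, and placed Gadd45a last, at 53.4, below Rhob at 70.6. On that scale Csrnp1, at 193.9 to 307.1, overlapped Btg1, at 103.4 to 205.0, though it stayed higher in every library. Ier5 stood just above Btg1 there, at 147.3 against 146.8.

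The length used for TPM depends on how reads are divided among a gene's isoforms. Ier2, Ier3, Ier5, Btg2 and Rhob have 1 annotated isoform each, and the other 5 have 2 to 7. The full-length Pim1-201 (2698 bases, 6 exons) took 64.3% of the gene's counts but 28.3 ± 0.876% of its TPM (SD, n = 3). Pim1-202, a noncoding processed transcript of 355 bases, took 3.27% of the counts and 26.8 ± 3.32% of the TPM. In the alignment-free table Pim1-201 held 7.96% of the TPM and Pim1-202 34.9%. Pim1-207 was at 28.9, 0.00 and 0.40 TPM in replicates 1, 2 and 3 of the alignment-based table, against 91.2, 37.0 and 59.2 TPM in the alignment-free table, so the division among Pim1 isoforms differed between the methods. Pim1-203 held 21.1% and Pim1-206 9.91% of the alignment-based TPM. Pim1-205 held 3.00% there and 9.38% in the alignment-free table.

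Btg1 showed the same contrast between counts and TPM. Btg1-201 (5001 bases) took 97.1% of the counts and 75.2 ± 4.88% of the TPM, and Btg1-202 (668 bases) 2.94% of the counts and 24.8 ± 4.88% of the TPM. Of Csrnp1, Csrnp1-204 held 47.6 ± 8.96% of the TPM and Csrnp1-203 18.9 ± 4.79%. Csrnp1-201 was at 7.69, 9.51 and 30.4 TPM, high in replicate 3 in the alignment-based table but not in the alignment-free one, where it was at 25.7, 6.64 and 20.4. Csrnp1-205 (465 bases) held 15.8% of the TPM and 1.70% of the counts.

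Both GADD45 genes carried isoforms annotated as retained intron, which held a larger share of Gadd45a than of Gadd45b. In Gadd45a they held 35.9%, 64.5% and 57.2% of the TPM in replicates 1, 2 and 3 (52.5 ± 14.9, SD, n = 3), and 43.4%, 70.6% and 67.7% in the alignment-free table. The share was lowest in replicate 1 in both tables. By counts these isoforms held less, 39.1 ± 13.0% of Gadd45a, and the coding Gadd45a-201 held 60.9%. Gadd45a-202 alone held 38.0 ± 7.21%, Gadd45a-203 9.51 ± 3.83% and Gadd45a-204 3.71 ± 3.73%, or 9.51 ± 5.38% in the alignment-free table. The coding Gadd45a-201 held 47.5 ± 14.9%. In Gadd45b the retained-intron isoform, Gadd45b-202, held 24.9%, 21.2% and 18.4% (21.5 ± 3.28), and 31.2 ± 4.62% in the alignment-free table; by counts it held 12.2 ± 1.82%. The coding isoforms Gadd45b-201 and Gadd45b-203 held 51.3 ± 3.93% and 27.2 ± 6.38%. The Gadd45a share exceeded the Gadd45b share in 3 of 3 libraries of both tables. In TPM the order was the other way. Gadd45b-202 was at 49.1, 35.1 and 31.2 TPM in replicates 1, 2 and 3, above the whole of Gadd45a at 30.4, 30.9 and 18.8 (alignment-based). By counts, not divided by length, Gadd45b-202 lay below the whole of Gadd45a, narrowly in replicate 3. It held 14.0%, 12.2% and 10.4% of 2201, 2769 and 2776 Gadd45b counts, and Gadd45a had 362, 492 and 293. In Pim1 the retained-intron isoform Pim1-204 held 7.24 ± 4.89% in the alignment-based and 0.606% in the alignment-free table. The files do not separate these isoforms from unspliced RNA.

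**Figure D3:**
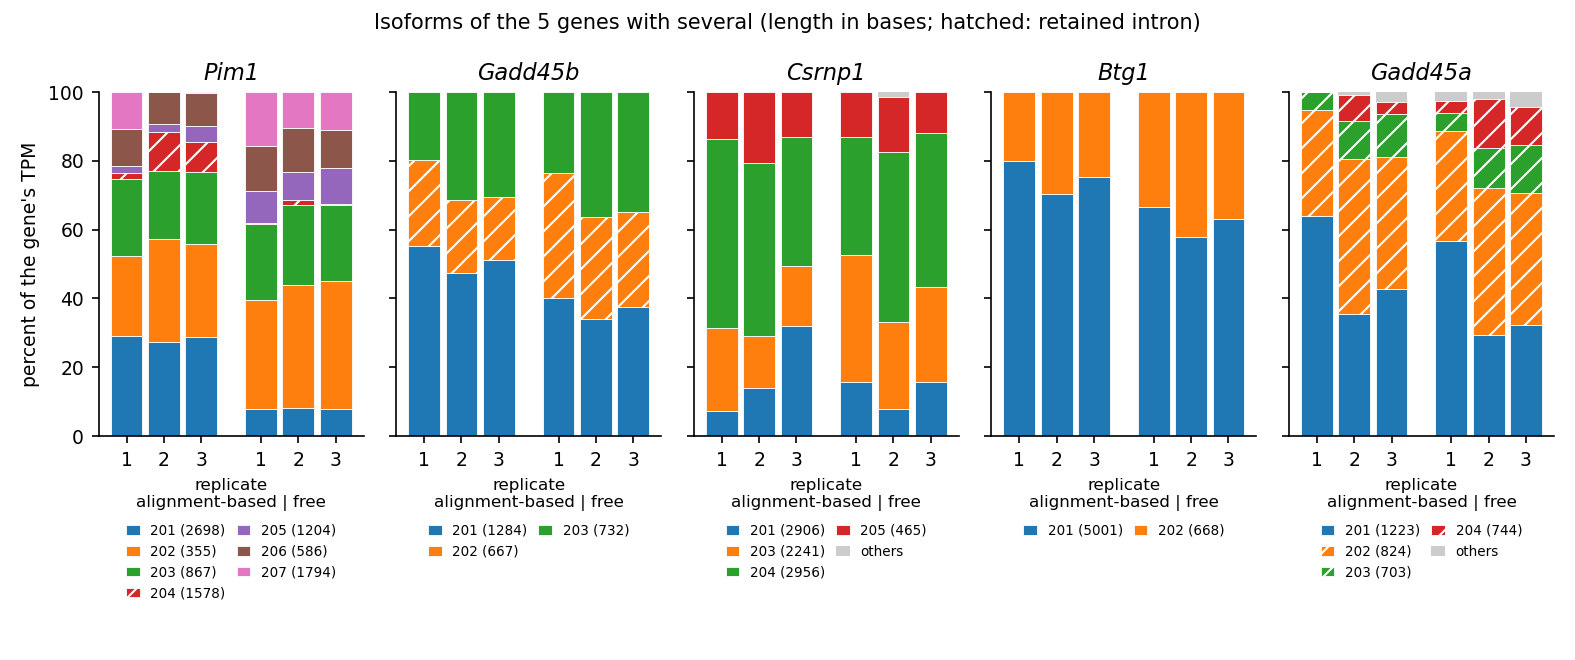
Share of each gene's TPM (percent) in its annotated isoforms, for the 5 members with several, in replicates 1, 2 and 3 of the alignment-based table (left bars) and the alignment-free table (right bars); legends give isoform numbers with lengths in bases, and hatching marks retained-intron isoforms. The hatched Gadd45a-202 takes 30.7% to 45.2% of its gene in the alignment-based table (Gadd45a-205, also a retained-intron isoform, is among the others), and the blue Pim1-201 share is smaller in the alignment-free table.

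The spread between replicates differed widely among the 10 genes. It was measured as the SD of log2 CPM, counts scaled for library depth (TMM) but not for length. Gadd45b had an SD of 0.03, with a counting error of 0.029 expected from its counts, and Ier5 an SD of 0.04, with a counting error of 0.033. Rhob followed at 0.09 and a counting error of 0.056. At the other end were Gadd45a at 0.39 with a counting error of 0.076, Btg2 at 0.37 with 0.045 and Btg1 at 0.36 with 0.026. Pim1 (0.20), Ier2 (0.25), Csrnp1 (0.27) and Ier3 (0.31) lay between. The median of the 10 was 0.26, beside 0.27 over the 12931 genes that passed the count filter. On log2(TPM + 0.1) the SD ran from 0.09 for Ier2 and Rhob, over 0.13 for Ier5 and 0.14 for Gadd45b, up to 0.52 for Btg2, with a median of 0.30. These 4 were the genes of lowest spread on that scale, Ier2 among them although its counts varied more.

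Replicate 2 was the low library for most of the wide genes. Btg2 deviated from its mean by 0.31, -0.41 and 0.10 log2 units in replicates 1, 2 and 3, Btg1 by 0.37, -0.36 and -0.01 and Ier3 by 0.28, -0.33 and 0.05. Csrnp1 deviated by 0.09, -0.31 and 0.22 and Pim1 by 0.13, -0.23 and 0.10. Ier2 went the other way, at -0.28, 0.20 and 0.09, and Gadd45a was low in replicate 3, at 0.20, 0.25 and -0.45. Each of these 2 rested on 1 library, since the SD of Gadd45a was 0.04 without replicate 3 and that of Ier2 0.07 without replicate 1. Replicate 2 held the lowest log2 CPM of 6 of the 10 genes and the lowest TPM of 8. The share of all genes lowest in replicate 2 was not counted, so these counts have no background beside them. The median deviation of the 10 was 0.11, -0.13 and 0.06, against -0.00 in replicate 2 over all genes. Summed TPM was also lowest in replicate 2 for the 27 other immediate-early genes (2980, 1901 and 2214 in replicates 1, 2 and 3), the p53 response genes (1223, 927 and 1029) and the macrophage markers. Without replicate 2 the median SD of the 10 genes was 0.13, with Pim1 at 0.02 and Btg2 at 0.14. Replicate 2 was made from the smallest amount of RNA, 250 ng, and the part of that amount in these deviations was not tested.

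**Figure D4:**
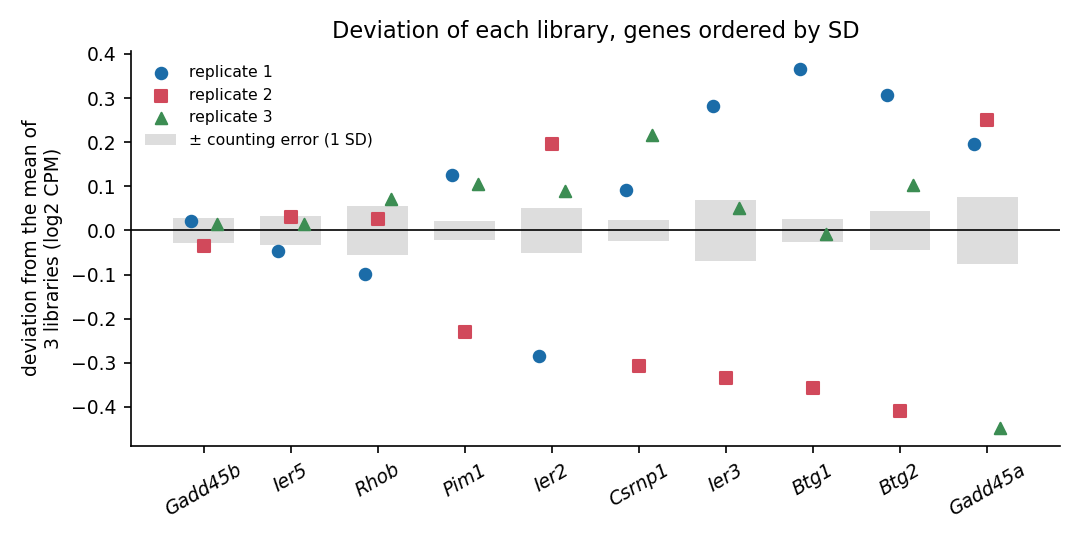
Deviation of log2 CPM from the mean of the 3 libraries for each gene and replicate (points), with 1 SD of counting error either side (grey bars), genes ordered by SD. Gadd45b and Ier5 stay near the grey bars, and replicate 2 is the low point of Pim1, Csrnp1, Ier3, Btg1 and Btg2.

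Beside the 10 genes, 27 other immediate-early genes gave 17 called higher, 3 lower and 7 neither, with a median of 2.43, beside 2.28 for the 10. The shares were 63.0% higher and 11.1% lower, against 19.5% and 44.5% of protein-coding genes tested. This list too was chosen with earlier results of these data known, so the excess is a description only. Nfkbiz, an NF-κB cofactor gene, had 403 ± 101 TPM and Dusp1, a MAP kinase phosphatase gene, 335 ± 67.1 TPM. Ccn1, a matrix protein gene, was lowest at 0, 0 and 0.08 TPM. Since Gadd45a and Btg2 are also p53 targets, 19 p53 response genes were set beside them. Of these 5 were called higher, 9 lower and 5 neither, with a median of -1.51. These shares, 26.3% higher and 47.4% lower, lay near the 19.5% and 44.5% of protein-coding genes tested, whose median was -1.09. Mdm2, whose product degrades p53, had 551 ± 58.8 TPM and the kinase gene Plk2 236 ± 56.8 TPM (SD, n = 3), while Perp, a gene of cell adhesion and death, was at 0 in every library. Cdkn1a, Myc, Plk2 and Plk3 stood in more than 1 of these lists.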

How the data were processed

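Chromatin-associated RNA of 3 libraries was analysed as 1 group. Per the file headers and notes, values refer to mm10 and annotation release M21; neither programs nor strand setting is given in the sources used here. For each library the authors deposited expected counts and TPM per gene and per transcript, derived from alignments, and a transcript table with estimated counts and TPM derived from the reads without alignment (the alignment-free table). Expected counts were rounded for counting steps. Rows for tRNA, ERCC spike-ins and phiX were left out of the tests and of the library sizes behind CPM. The library totals printed above include them, and annotated genes alone held 12540023, 18239245 and 18050915 expected counts in replicates 1, 2 and 3. Deposited TPM was not rescaled after these rows were left out. Molecular identifiers are not named, so counting errors cover counting alone.

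Levels were log2(TPM + 0.1), which understates differences near 0, minus the library's reference gene. Genes whose mean TPM reached 0.1, and listed genes, were tested in R 4.3.3 with limma 3.58.1 (treat, 2-fold, trended variance, two-sided, Benjamini-Hochberg over all genes tested). Pairs were compared within libraries by exact sign-flip tests. Spread used edgeR 4.0.16 (TMM, filterByExpr with a minimum count of 10, prior count 2), with DESeq2 1.42.0 size factors as an alternative. The fits were tested on simulated data. Promoter windows came from RefSeq (GRCm38.p6).

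The text names all 10 members, of every pathway list the 2 highest and the lowest gene by mean TPM, both genes of each pair, and isoforms with at least 5% of a gene's TPM in either transcript table; the overlapping genes, the marker genes named and the other paralogs were named after their values were seen. 1 pathway list is not reported here. The members and lists were chosen with earlier results of these data known.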

Additional observations from a re-analysis of the deposited data

How the results depend on the processing

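Each of the 10 genes was tested under 13 alternatives, 12 planned and 1, counts divided by the length of all annotated exons, chosen after seeing the data. Pim1, Gadd45b, Csrnp1 and Btg1 were called higher under all 13, Ier5 under 12, Ier2, Ier3 and Gadd45a under 11, Btg2 under 9 and Rhob under 5. With a band of 4-fold 5 of the 10 were called higher, and taking reference genes from a TPM of 5, 4 were. Over all genes the 2779 called higher became 1467 with the 4-fold band, 4299 with no band, 1346 and 4507 taking reference genes from a TPM of 5 and 0.1, and 4681 with the alignment-free table. The 9653 called lower became 14936 with no filter and 2701 with genes of a mean TPM of at least 1, which differ in the number of genes tested. Of the genes on the paralog, pathway and immediate-early lists, 38 were higher, against 59 with no band and 25 and 61 taking reference genes from a TPM of 5 and 0.1; 30 were lower, against 13 with a mean TPM of at least 1, 17 with the 4-fold band, 17 taking reference genes from a TPM of 0.1 and 19 with the alignment-free table. Ier5 minus Ier2 ranged between -0.0888 and 0.124 with 1 library left out, changing sign without replicate 1, and Rhob minus Rhoa changed sign with all annotated exons, to 0.77. With 1 library left out, the median SD of the 10 genes ranged between 0.13 and 0.27. The alignment-free table gave Gadd45b retained-intron isoforms 31.2% against 21.5%, those of Pim1 0.606% against 7.24%, Btg1-201 62.5% against 75.2%, Gadd45b-201 37.2% against 51.3% and Pim1-201 7.96% against 28.3%; the cause was not tested. DESeq2 size factors moved none of the 11 spread values by over 1.5 times. No paired analysis was possible because the series has 1 group, so replicate numbers pair no samples across groups.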
